A study of Mus musculus with 2 samples.

Results

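Genes of microglia and of border macrophages were examined in the embryonic mouse brain at embryonic day 16.5, in RNA from pieces cut by laser capture microdissection (LCM, the cutting of chosen areas out of a stained section with a laser). The list held 31 genes of the 24411 in the count table, and all 31 were found there by symbol. They were chosen by name as markers of these cells, with the read counts and the SVZ to cortex ratios of these same libraries already known. Their counts and ratios are therefore given as a description, without a test. The SVZ library came from the subventricular zone, a layer of dividing progenitors near the ventricle, and the cortex library from the cortex. Both were cut from fresh-frozen, haematoxylin and eosin stained brain. No genotype, strain, sex or treatment is named for either area in the sources used here, and how many embryos, sections or pieces were pooled is likewise not given. With 1 library per area, no difference has a replicate check.

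Microglia are the resident macrophages of brain tissue. They come from yolk sac progenitors, enter the brain early in development, and there clear dying cells and survey their surroundings through purine, complement and immunoglobulin receptors. Border macrophages are related cells of the meninges, perivascular spaces and choroid plexus, and are usually told apart from microglia by genes such as *Mrc1*, *Pf4* and *F13a1*. Both depend on the transcription factor PU.1.

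The libraries held 51435667 (SVZ) and 22050693 (cortex) reads assigned to genes, a depth ratio of 2.33. Levels are counts per 1000000 of these reads (CPM). A single read thus equals 0.0194 SVZ CPM or 0.0454 cortex CPM. The areas were recognisable by their markers: 8 apical progenitor genes summed to 6529 CPM (SVZ) and 130 CPM (cortex), whereas 8 neuronal genes summed to 1454 and 6724 CPM. Ratios are log2 of SVZ CPM over cortex CPM, each followed in parentheses by its exact 95% Clopper-Pearson interval. These intervals cover the counting error of reads only. No molecular identifiers or removal of duplicates were described for these libraries. PCR copies may therefore count as reads, which would make the intervals too narrow. Where the cortex library had 0 reads, 3 reads (0.136 CPM) were taken as the limit. The fold above that limit is a lower bound for the counted reads alone. Counting error of the SVZ reads puts the lower interval end below that fold. Because the RNA is from whole pieces of tissue, fewer cells of a type and less RNA per cell cannot be told apart.

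The 31 genes were scarce in both areas and scarcer in the cortex. They summed to 7850 SVZ reads and 708 cortex reads, or 153 and 32.1 CPM, a 4.75-fold difference (4.40 to 5.14). *Olfml3* alone gave 233 of the cortex reads, and the other 30 genes summed to 148 and 21.5 CPM, 6.89-fold apart (6.28 to 7.58). A gene is called SVZ-high or cortex-high here where its CPM was at least 4-fold above that of the other area. Of the 31 genes, 19 were SVZ-high and 0 were cortex-high. Over all 15847 genes with more than 3 reads in at least 1 library these shares were 11.8% and 9.3%. Among the 7576 of them with at most 1000 reads over both libraries, a range that takes in each of the 31 genes, 16.7% were SVZ-high. The whole interval lay past 4-fold for 13 of the 31 genes (8.08% of all genes) and above equal CPM for 26 (45.4% of all genes). It lay below equal CPM for *Olfml3* and held equal CPM for *Ptprc*, *Runx1*, *Pf4* and *F13a1*. The median log2 ratio was 2.44 over the 31 genes and 0.12 over all genes. Since the genes were chosen with these values in view, the shares are set side by side and nothing is drawn from them.

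**Figure D1:**
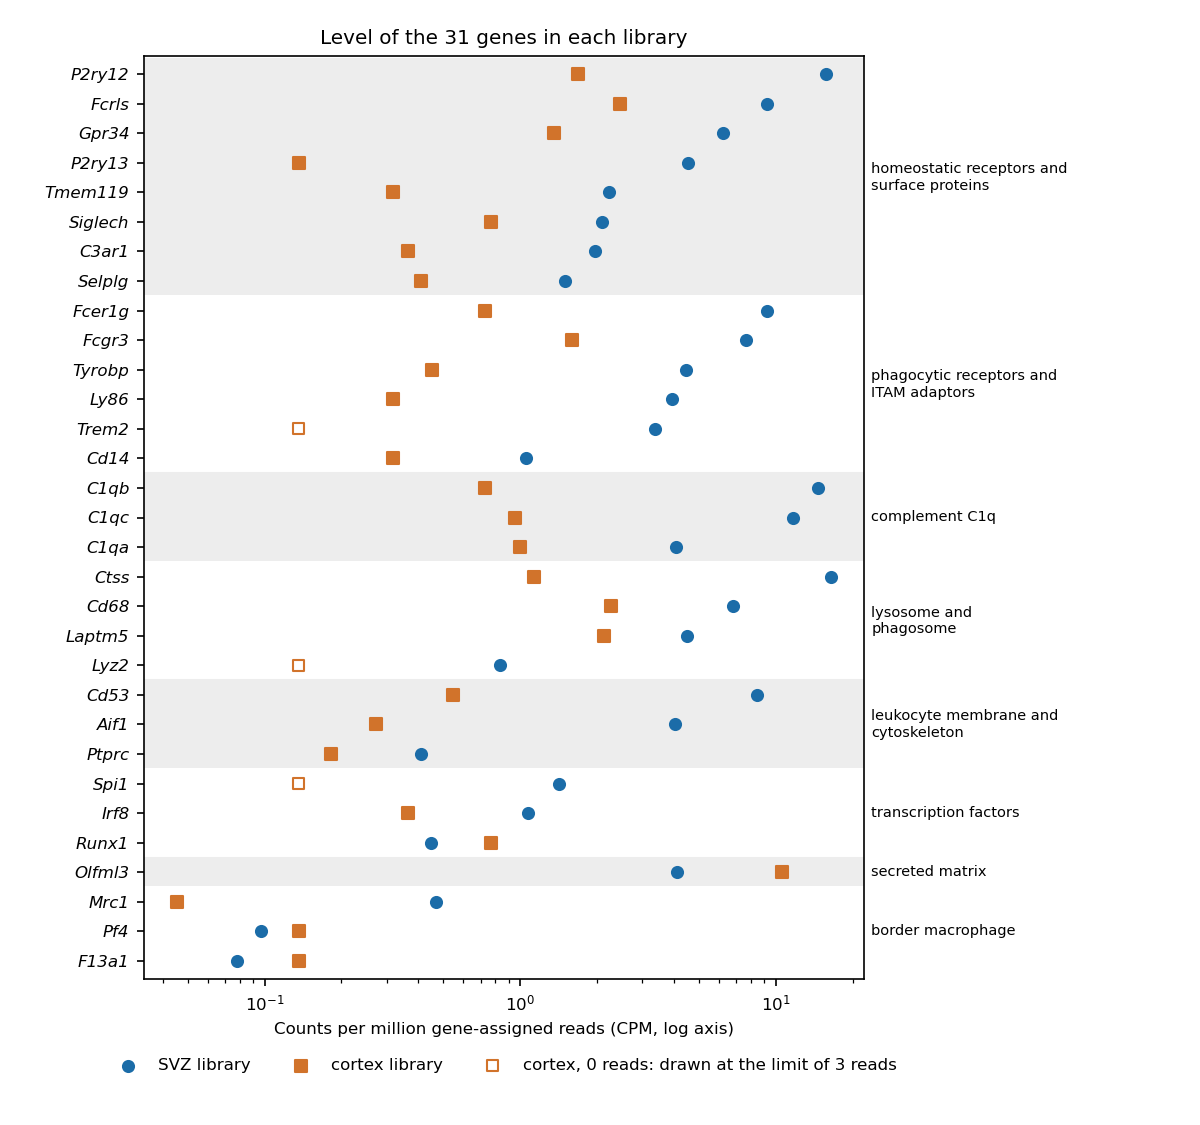
CPM of each of the 31 genes in the SVZ library (blue circles) and the cortex library (orange squares) on a log axis, grouped by role, with 1 library per area and no error bar; open squares are genes with 0 cortex reads, drawn at the limit of 3 reads. The SVZ point lies to the right for 27 of the genes, and *Olfml3* is the highest cortex point at 10.6 CPM.

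The transcription factors of the lineage were among the less abundant of the 31 genes in the SVZ library, and their measured ratios differed. *Spi1*, which encodes PU.1, was covered by 73 SVZ reads (1.42 CPM) and by 0 cortex reads. This was 10.4-fold above the cortex limit, with a lower interval end of 8.27-fold. *Irf8*, an interferon regulatory factor that pairs with PU.1, had 55 SVZ and 8 cortex reads (1.07 and 0.363 CPM), a log2 ratio of 1.56 (0.48 to 2.84). *Runx1*, a factor of blood cell development, had 23 and 17 reads (0.447 and 0.771 CPM) and a log2 ratio of -0.79 (-1.75 to 0.21). *Spi1* was thus read in the SVZ library alone, while for *Runx1* the libraries could not be separated at this depth.

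PU.1 binds a purine-rich ETS site, and the promoters of the list were searched for its letters. RefSeq promoters on GRCm38.p6, from 250 bases before to 50 bases after a start, were found for 24 of the 31 genes, 29 promoters in all, and not for *C1qa*, *Cd14*, *Gpr34*, *Selplg*, *Spi1*, *Tmem119* or *Tyrobp*. The letters GAGGAAGT, on either strand, were found in 5 of these promoters (17.2%) and in 3.20% of all 32851 promoters of that length. The shorter GAGGAA, which each GAGGAAGT match contains, was found in 19 (65.5%) against 28.3% of all, and the RUNX letters TGTGGT in 8 (27.6%) against 16.8%. The composite element of ETS and IRF factors was found in 1, that of *Cd68* (3.45% against 2.72%), and the CLEAR element of lysosomal genes in 0 (0.326% of all). These are matches of letters and not sites shown to be bound. The 5 promoters with GAGGAAGT belonged to *Ctss*, *Cd53*, *C1qc*, *Pf4* and *F13a1*. Stretches of 120 bases are printed for 4 of them, because they span the list from its highest SVZ level (*Ctss*) nearly to its lowest (*Pf4*). Capitals mark the match, which reads ACTTCCTC in the direction of transcription in each. The stretches are chr3:95526686-95526805 on the plus strand (*Ctss*), chr3:106790130-106790249 on the minus strand (*Cd53*), chr4:136893025-136893144 on the minus strand (*C1qc*) and chr5:90772335-90772454 on the plus strand (*Pf4*).
Ctss: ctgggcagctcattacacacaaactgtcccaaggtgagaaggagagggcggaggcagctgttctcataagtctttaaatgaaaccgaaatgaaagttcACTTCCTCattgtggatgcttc
Cd53: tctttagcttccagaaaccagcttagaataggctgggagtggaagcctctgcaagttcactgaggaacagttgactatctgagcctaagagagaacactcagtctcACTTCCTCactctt
C1qc: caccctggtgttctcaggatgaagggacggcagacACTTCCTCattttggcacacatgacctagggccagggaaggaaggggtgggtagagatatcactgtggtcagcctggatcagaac
Pf4: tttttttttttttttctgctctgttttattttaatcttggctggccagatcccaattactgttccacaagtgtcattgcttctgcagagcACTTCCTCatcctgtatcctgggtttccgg
The match lay across the start in *Ctss* (-2 to 6, counted without a 0 from the RefSeq start), just after it in *Cd53* (7 to 14), just before it in *Pf4* (-10 to -3) and farther upstream in *C1qc* (-195 to -188). The RefSeq start used for *C1qc* lies downstream of the GENCODE start of that gene, so the match is closer to the latter.

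Of the surface receptors that define resting microglia, all 8 had an interval above equal CPM. They summed to 43.4 SVZ CPM and 7.48 cortex CPM, 5.80-fold apart (4.95 to 6.84). *P2ry12*, the ADP receptor by which microglial processes move towards injured cells (chromosome 3, 59216272 to 59262871, GRCm38), had 807 SVZ and 37 cortex reads. Its levels of 15.7 and 1.68 CPM gave a log2 ratio of 3.23 (2.75 to 3.74). The related receptor *P2ry13* lies beside it on the same strand (59207892 to 59210882) and had 234 and 3 reads. The log2 ratio of *P2ry13* was 5.06 (3.50 to 7.35), the highest of the list, on a cortex level of 0.136 CPM. These neighbours were thus both well covered in the SVZ library, and *P2ry13* was close to absent from the cortex library.

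The remaining receptors had smaller ratios. *Gpr34*, a receptor for lysophosphatidylserine, had 320 SVZ and 30 cortex reads (6.22 and 1.36 CPM; log2 ratio 2.19, 1.65 to 2.78). *Fcrls*, an Fc receptor-like scavenger receptor, had 474 and 54 reads (9.22 and 2.45 CPM), for a log2 ratio of 1.91 (1.50 to 2.35). For *Tmem119*, a membrane protein used to tell microglia from blood-derived macrophages, 114 and 7 reads were counted (2.22 and 0.317 CPM), a log2 ratio of 2.80 (1.71 to 4.15). *Fcrls* therefore had the highest cortex level of these 8 genes although it was second to *P2ry12* in the SVZ library. *C3ar1*, the receptor for complement fragment C3a, with 101 and 8 reads, gave a log2 ratio of 2.44 (1.40 to 3.69). For *Siglech*, a sialic acid-binding lectin, 107 and 17 reads gave 1.43 (0.69 to 2.26). *Selplg*, the ligand of P-selectin, was covered by 77 and 9 reads, for a log2 ratio of 1.87 (0.88 to 3.06). The read-count intervals of *Siglech* and *P2ry13* did not overlap, with only 3 cortex reads for *P2ry13*. With 1 library per area, this does not show that genes of the same role differ in ratio.

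The phagocytic receptors and the adaptors that signal for them summed to 29.7 and 3.40 CPM, 8.72-fold apart (6.92 to 11.2). *Trem2*, a lipid-sensing receptor of phagocytic microglia, was covered by 173 SVZ reads (3.36 CPM) and 0 cortex reads. It was 24.7-fold above the cortex limit, with a lower interval end of 19.9-fold. Its adaptor *Tyrobp* (DAP12), which carries the signalling motif called ITAM, had 229 and 10 reads (4.45 and 0.454 CPM) and a log2 ratio of 3.30 (2.39 to 4.38). The other ITAM adaptor, *Fcer1g*, the common gamma chain of Fc receptors, had 474 and 16 reads (9.22 and 0.726 CPM), giving a log2 ratio of 3.67 (2.95 to 4.49). The adaptors were thus read in both libraries, whereas *Trem2* was at 0 in the cortex library. *Fcgr3*, a low-affinity receptor for IgG, had 394 and 35 reads (7.66 and 1.59 CPM) and a log2 ratio of 2.27 (1.77 to 2.81). It has close relatives in the genome, and reads that map to several genes are left out of its count. *Ly86* (MD-1, a partner of the Toll-like receptor relative RP105) was covered by 202 and 7 reads, for a log2 ratio of 3.63 (2.56 to 4.96). *Cd14*, a co-receptor for lipopolysaccharide, had 54 and 7 reads, a log2 ratio of 1.73 (0.58 to 3.11).

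The 3 chains of complement C1q, the recognition protein of the classical pathway that tags cells and synapses for removal, are assembled into 1 molecule and lie side by side on the minus strand of chromosome 4. In order they are *C1qb* (136880129 to 136886187), *C1qc* (136889804 to 136893065) and *C1qa* (136895917 to 136898803). In the SVZ library they had 752, 601 and 210 reads (14.6, 11.7 and 4.08 CPM), and in the cortex library 16, 21 and 22 reads (0.726, 0.952 and 0.998 CPM). Their order by reads was thus reversed between the libraries, but the cortex counts lay within each other's counting error. Per kilobase of exon, the SVZ levels were 13.4 for *C1qb*, 6.05 for *C1qc* and 3.93 for *C1qa* (CPM per kilobase), and the cortex levels 0.667, 0.493 and 0.959. The log2 ratios were 4.33 (3.62 to 5.15) for *C1qb*, 3.62 (2.99 to 4.32) for *C1qc* and 2.03 (1.40 to 2.74) for *C1qa*. The interval of *C1qa* overlapped neither of the others. Together the chains summed to 30.4 and 2.68 CPM, 11.4-fold apart (8.76 to 15.0).

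Genes of the lysosome and phagosome were divided. *Ctss*, which encodes the lysosomal protease cathepsin S, was the most counted of the 31 genes in the SVZ library, with 847 reads (16.5 CPM) against 25 cortex reads (1.13 CPM). Its log2 ratio was 3.86 (3.29 to 4.50). *Cd68*, a heavily glycosylated lysosomal membrane protein, had 348 and 50 reads (6.77 and 2.27 CPM) and a log2 ratio of only 1.58 (1.15 to 2.04). *Laptm5*, a lysosomal membrane protein of blood cells, had 230 and 47 reads (4.47 and 2.13 CPM) and a log2 ratio of 1.07 (0.61 to 1.55). The intervals of *Cd68* and *Laptm5* thus lay wholly below that of *Ctss*. Per kilobase of exon *Cd68* was the highest of the 31 genes in the cortex library, at 1.80 CPM per kilobase, and seventh in the SVZ library, at 5.38. *Lyz2*, the lysozyme of macrophages, had 43 SVZ reads (0.836 CPM) and 0 cortex reads. It was 6.14-fold above the cortex limit, with a lower interval end of 4.79-fold. Its near-identical relative *Lyz1* was at 0 in both, and reads shared by such copies are not counted.

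Among the membrane and cytoskeletal proteins of leukocytes, *Cd53* and *Aif1* had high ratios and *Ptprc* was barely read. *Cd53*, a tetraspanin of white blood cells, had 435 and 12 reads (8.46 and 0.544 CPM) and a log2 ratio of 3.96 (3.14 to 4.92). *Aif1*, which encodes the microglial stain antigen IBA1, had 207 and 6 reads (4.02 and 0.272 CPM), a log2 ratio of 3.89 (2.74 to 5.35). *Ptprc*, the pan-leukocyte phosphatase CD45, had 21 and 4 reads (0.408 and 0.181 CPM), and its log2 ratio of 1.17 (-0.40 to 3.17) did not separate the libraries.

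*Olfml3* went the other way. This gene encodes a secreted olfactomedin-like glycoprotein, and it had 212 SVZ and 233 cortex reads, or 4.12 and 10.6 CPM. Its log2 ratio was -1.36 (-1.63 to -1.08), a 2.56-fold higher level in the cortex library. Its cortex count was the highest of the 31 genes, and its interval overlapped those of *Runx1*, *Pf4* and *F13a1* but not that of any microglial receptor. Meningeal genes also had more CPM in the cortex library, 9.93 CPM against 4.78 CPM summed over 8 genes, while 6 pericyte genes summed to 64.7 cortex CPM and 94.4 SVZ CPM. The part of other cells in the *Olfml3* level was not tested.

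**Figure D2:**
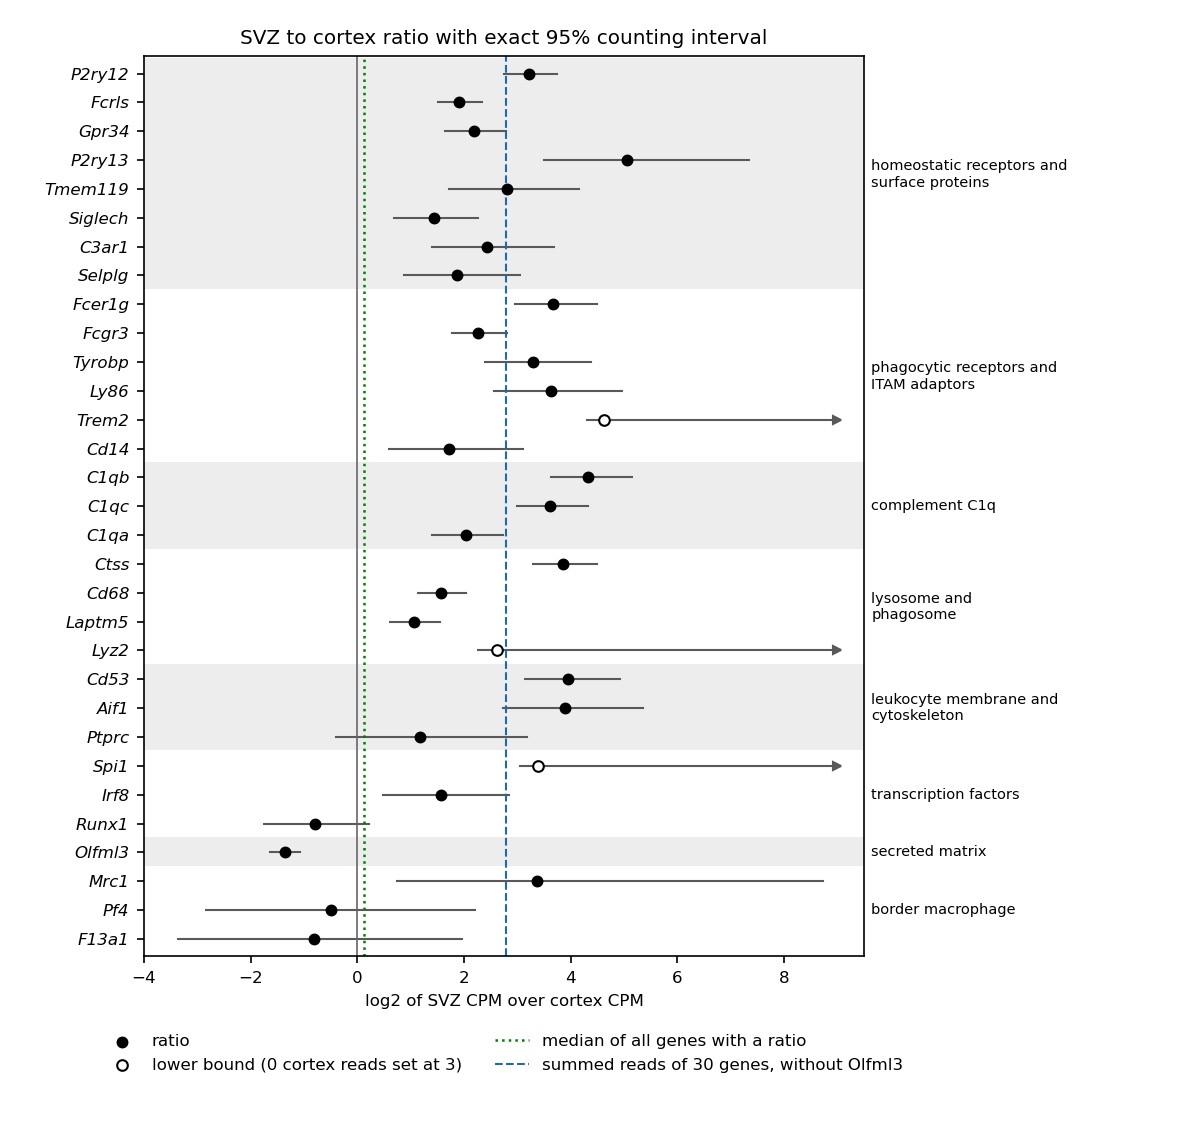
Log2 of SVZ CPM over cortex CPM for each gene, with its exact 95% counting interval as a line; open points are lower bounds, the dotted line is the median of all genes (0.12) and the dashed line the ratio of the summed reads without *Olfml3* (2.79). The intervals of *C1qb*, *Ctss* and *Cd53* lie to the right of the dashed line and those of *Cd68*, *Laptm5*, *C1qa* and *Olfml3* to its left.

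The read-count intervals of the genes did not all hold 1 ratio. They take in neither PCR copies nor differences between libraries, so whether the genes truly differ in ratio was not tested. With *Olfml3* left out, the summed reads had a log2 ratio of 2.79 (2.65 to 2.92), and that value fell within the interval of 13 of the 31 genes. The interval lay above it for 8 genes, which were *P2ry13*, *Trem2*, *Fcer1g*, *C1qb*, *C1qc*, *Ctss*, *Cd53* and *Spi1*. It lay below it for 10 genes, which were *Gpr34*, *Fcrls*, *Siglech*, *C1qa*, *Cd68*, *Laptm5*, *Runx1*, *Olfml3*, *Pf4* and *F13a1*. Shares of the reads of all 31 genes, *Olfml3* included, need no scaling of the libraries. *Ctss* took 10.8% of them (10.1 to 11.5) in the SVZ library and 3.53% (2.30 to 5.17) in the cortex library, and *C1qb* 9.58% (8.94 to 10.3) and 2.26% (1.30 to 3.64). *Laptm5* took 2.93% (2.57 to 3.33) and 6.64% (4.92 to 8.73), and *Olfml3* 2.70% (2.35 to 3.08) and 32.9% (29.5 to 36.5). For *Fcgr3* (5.02% and 4.94%), *Gpr34* (4.08% and 4.24%) and *C1qa* (2.67% and 3.11%) the intervals overlapped.

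**Figure D3:**
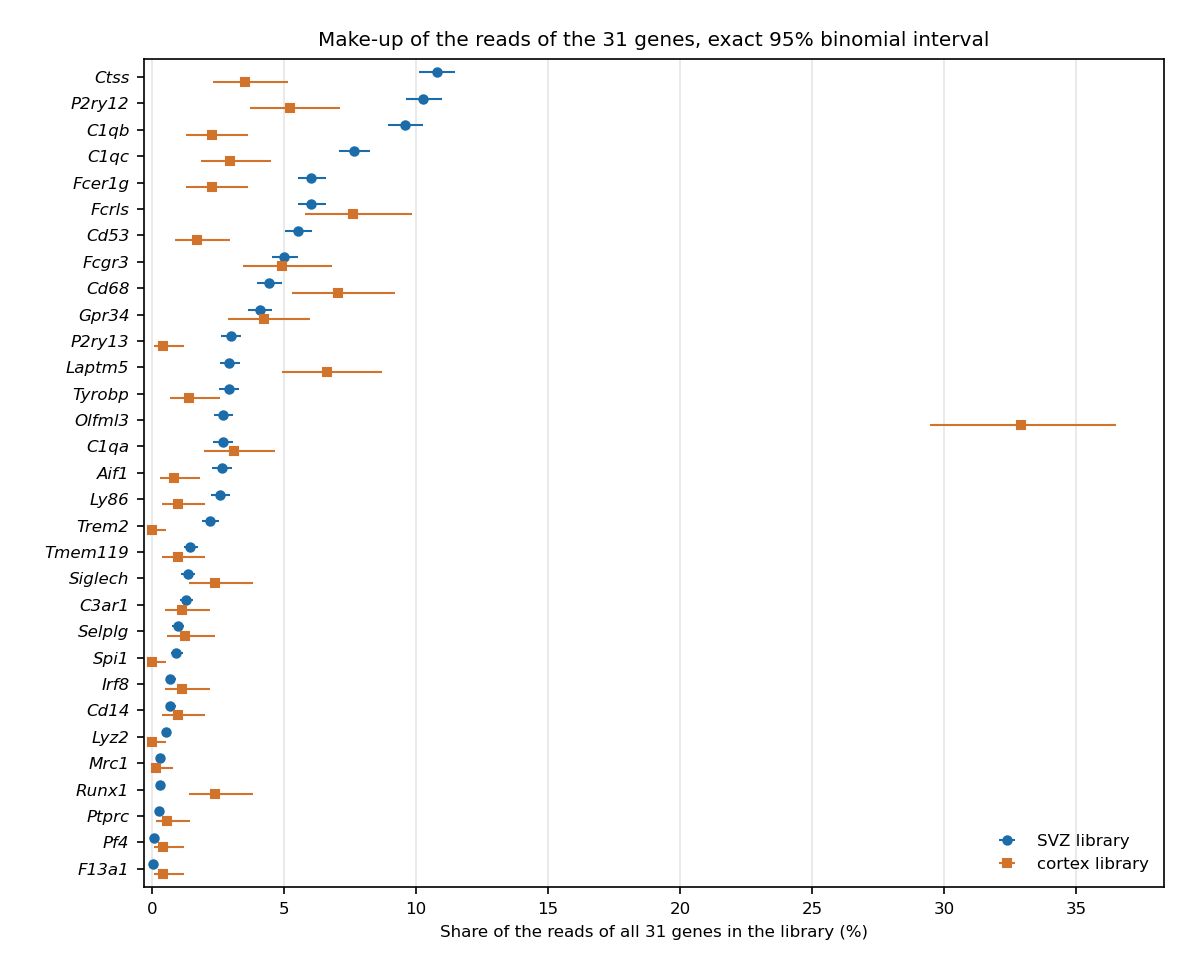
Share of the reads of all 31 genes that each gene took in the SVZ library (blue circles) and the cortex library (orange squares), in percent, with exact 95% binomial intervals as bars. *Olfml3* took 32.9% in the cortex library and 2.70% in the SVZ library, and *Ctss* 3.53% and 10.8%.

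Border macrophage genes were close to the limit of detection. *Mrc1*, the mannose receptor CD206, had 24 SVZ reads and 1 cortex read (0.467 and 0.0454 CPM), a log2 ratio of 3.36 (0.75 to 8.72). *Pf4*, a chemokine also made by platelets, had 5 and 3 reads (0.0972 and 0.136 CPM) and a log2 ratio of -0.48 (-2.85 to 2.20). *F13a1*, the A chain of coagulation factor XIII, had 4 and 3 reads (0.0778 and 0.136 CPM) and a log2 ratio of -0.81 (-3.37 to 1.96). A difference in *Pf4* or *F13a1* was not detectable at this depth. The 3 genes together made up 0.420% (0.290 to 0.590) of the reads of the list in the SVZ library and 0.989% (0.398 to 2.03) in the cortex library, intervals that overlap. They summed to 33 and 7 reads, a log2 ratio of 1.02 (-0.19 to 2.44).

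A further 21 genes named for border macrophages gave the same picture of low reads. No read was found in either library for 11 of them, which were *Cd163*, *Lyve1*, *Ms4a7*, *Ms4a6c*, *Clec12a*, *Cd209f*, *Cd209g*, *Ccl24*, *Siglec1*, *H2-Aa* and *H2-Ab1*. A count of 0 allows up to 0.0583 SVZ CPM and 0.136 cortex CPM. Of the 10 with a ratio, 3 were SVZ-high and 0 cortex-high, against 11.8% and 9.3% of all genes. Among the most counted were genes that other cells also use. *Maf* (log2 ratio 0.64) is a transcription factor of several lineages, *Blvrb* (2.30) is a biliverdin reductase of blood cells, and *Dab2* (2.38) is an endocytic adaptor. *Cd36*, a scavenger receptor, had 115 and 0 reads. *Cbr2* had 13 and 0 reads and *Folr2* 9 and 0, both named after their values were seen. Which reads of the receptors and C1q chains above came from microglia and which from border macrophages was not tested.

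Other genes of microglia were read from a list drawn up apart from the 31 genes, of which 28 were in the table. A ratio could be given for 27, with 9 SVZ-high (11.8% of all genes), 0 cortex-high (9.3% of all genes), and a median log2 ratio of 1.56. *Csf1r*, the receptor for the growth factors on which microglia depend, had 244 and 28 reads (log2 ratio 1.90, 1.33 to 2.52). *Cx3cr1*, the fractalkine receptor, had 365 and 13 reads (log2 ratio 3.59, 2.80 to 4.51). These receptors were singled out after their values were seen, and both lay within the range of the microglial receptors above. Among the most counted genes of that list were *Sparc* (log2 ratio 1.87), *Sall1* (5.62), *Coro1a* (-1.92) and *Cyba* (2.10), several of which neural cells express too. Genes named for *Trem2* and Fc receptor signalling were likewise compared, 16 in all. They took in enzymes and adaptors but also Fc receptors and other surface receptors, some of them among the SVZ-high genes. Of the 13 with a ratio, 6 were SVZ-high and 0 cortex-high, beside the same 11.8% and 9.3% of all genes. *Syk*, the kinase that ITAM adaptors recruit, had 93 and 0 reads, 13.3-fold above the cortex limit (lower end of the log2 interval 3.41). *Plcg2*, a phospholipase of the same route, had 77 and 0 reads, 11.0-fold above it (3.13). Both were singled out after their values were seen. The most counted were *Prkcd* (532 and 742 reads, log2 ratio -1.70), *Sirpa* (0.46), *Lyn* (1.37), *Lcp2* (0.32) and *Pik3cg* (2.75).

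Markers of other cells that the pieces could hold were read beside these values. Lymphocyte genes were at 0 in both libraries for 9 of 9 genes. Of 7 neutrophil genes 6 were at 0 in both, and *S100a9* had 7 and 0 reads. For monocytes the defining *Ccr2*, *Plac8* and *Chil3* were at 0 in both, and *Ly6c2* had 1 and 5 reads. The list also held the matrix genes *Vcan* (1454 and 4510 reads) and *Fn1* (1783 and 1101 reads), which other cells express and which made up nearly all of its 63.0 SVZ CPM and 255 cortex CPM. The mast cell proteases *Cpa3*, *Mcpt4*, *Cma1* and *Tpsb2* were at 0 in both, and *Kit*, which other cells also express, had 1151 and 1226 reads. Platelet genes summed to 2.94 SVZ CPM and 7.48 cortex CPM, with *Gp9*, *Gp5* and *Treml1* at 0 in both and *Ppbp* at 15 and 0 reads. Most of the cortex sum was *Gp1bb*, with 45 and 129 reads (0.875 and 5.85 CPM), whereas *Itga2b* had 86 and 33 reads (1.67 and 1.50 CPM). Endothelial genes were near equal, 91.9 and 76.5 CPM over 10 genes. Of these, 0 lay 4-fold apart in either direction, against 11.8% SVZ-high and 9.3% cortex-high over all genes. Erythroid genes summed to 25.8 and 12.3 CPM, with 4 haemoglobin genes, which have close copies, at 0 in both.

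The choroid plexus, a tissue inside the ventricle that houses border macrophages, had its genes on the SVZ side. They summed to 247 SVZ CPM and to 0.726 CPM in the cortex, where *Ttr* alone was read. Each of the 5 with a ratio was SVZ-high, against 11.8% of all genes. *Ttr*, the thyroid hormone carrier of the choroid plexus, had 12363 and 16 reads, *Folr1* 141 and 0, *Clic6* 88 and 0, *Kcne2* 58 and 0, and *Otx2* 40 and 0, while *Kl* was at 0 in both. Choroid plexus transcripts thus moved with the macrophage genes, as did those of proliferation, which summed to 2116 and 35.4 CPM. The part of the choroid plexus in the macrophage levels was not tested.

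**Figure D4:**
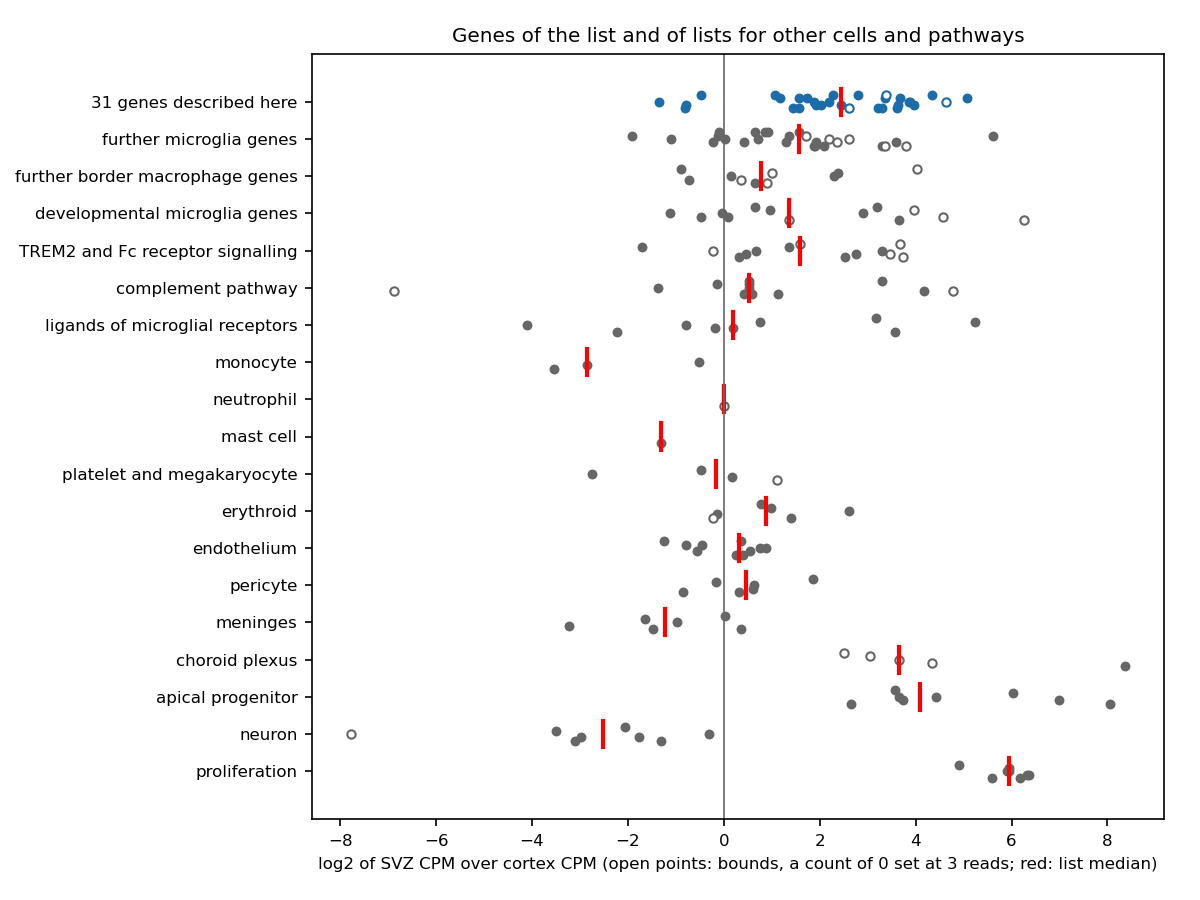
Log2 of SVZ CPM over cortex CPM for the 31 genes (blue) and for the genes of each other list (grey), 1 point per gene, with open points for bounds and a red line at the list median. The median of the 31 genes lies at 2.44, that of endothelial genes at 0.31 and that of choroid plexus genes at 3.65; genes with no ratio are not drawn.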

How the data were processed

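RNA from LCM pieces of the SVZ and the cortex, 1 library each, was sequenced after low-input cDNA synthesis. The authors trimmed adapters with cutadapt 4.1, mapped read 1 of each pair to mm10 with STAR 2.7.9a and deposited whole-number read counts per gene, without strand and for each strand. The annotation release and any removal of duplicates could not be read from the sources used here. The authors' merged table, which holds their CPM and fold changes, was not used.

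The unstranded counts were taken as deposited, and the 4 STAR summary lines were kept out of totals. Assigned reads were 59.0% (SVZ) and 59.1% (cortex) of all reads. CPM, log2 ratios and exact 95% intervals were computed without a pseudocount, a count of 0 was set at 3 reads for bounds, and genes with at most 3 reads in each library got no ratio. With 1 library per area there was no test. Positions and exon lengths (union of exons) were from GENCODE M21 on GRCm38, the same build as mm10, matched by symbol. Exons of *P2ry12* share 9 bases with *Med12l*, and exons of *Runx1* and *F13a1* overlap antisense transcripts by 106 and 74 bases. The sum of the strand columns equalled the unstranded count for each of the 31 genes, so no member read was lost to a gene on the opposite strand; loss to genes on the same strand was not tested.

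The members and all lists were chosen with earlier results of these data known. All 31 genes are named, with up to 5 most counted genes of each other list and the genes stated as singled out later; some genes stand in more than 1 list, and some list genes are not reported here. Promoters were from RefSeq. Alternatives were TMM and upper-quartile scaling in edgeR 4.0.16, size factors from DESeq2 1.42.0, totals that leave out the 10 most counted genes, the strand sum, a pseudocount of 1 CPM, thinning of the SVZ library to the cortex total, minimum levels, and folds of 2 and 8. Ratios and intervals were tested on simulated data. Intervals came from scipy 1.17.1, and figures from matplotlib 3.10.9, under Python 3.11.15 (with numpy 2.4.6 and with pandas 2.3.3), while scaling ran in R 4.3.3.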

Additional observations from a re-analysis of the deposited data

How the results depend on the processing

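No paired analysis was possible because only 1 library came from each area, and no replicate could be left out. The 19 SVZ-high genes became 18 under each other scaling and under thinning, 8 with a pseudocount of 1 CPM, which draws low levels together, and 10 of the 16 genes left with at least 10 cortex reads. At a fold of 2 there were 27, and 1 gene, *Olfml3*, was higher in the cortex library. The median log2 ratio of 2.44 became 1.29 with the pseudocount. The log2 ratio of the summed CPM, 2.25, was 2.14 without *Ctss* and 2.79 without *Olfml3*, the latter chosen after seeing the data. The share of border macrophage reads in the SVZ library, 0.420%, was 0.236% by reads per kilobase, and that in the cortex library, 0.989%, was 1.60%. With the SVZ library thinned, *Pf4* changed side (log2 ratio 0.41), and the median log2 ratio of the border macrophage genes went from -0.48 over 3 genes to 1.94 over *Mrc1* and *Pf4* alone, since *F13a1* then had too few reads for a ratio. Of 216 ratios of single genes recomputed, 195 stayed within the counting interval, 20 fell outside it, all under the pseudocount, and 1 (*Pf4*) changed side. Scaling moved the median of all genes by at most -0.099. The cortex depth limits the rest, since 15 of the 31 genes had under 10 reads there.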

Other observations

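Ligands of microglial receptors were split between the areas. *Csf1*, a growth factor for microglia, had 473 SVZ and 17 cortex reads (9.20 and 0.771 CPM), a log2 ratio of 3.58 (2.88 to 4.37), whereas *Il34*, the other ligand of the same receptor, had 45 and 17 reads (log2 ratio 0.18, -0.65 to 1.08). *Cxcl12*, a chemokine that guides migrating cells, had 3287 and 156 reads (log2 ratio 3.18, 2.94 to 3.42), and *Tgfb2*, a ligand of the TGF-beta family, 2994 and 34 reads (5.24, 4.75 to 5.77). The neuronal ligands that restrain microglia were on the other side or near equal. *Cx3cl1*, fractalkine, had 6 and 44 reads (-4.10, -5.62 to -2.86), *Cd200* 3965 and 8014 reads (-2.24, -2.29 to -2.18), and *Cd47* 8480 and 4104 reads (-0.17, -0.23 to -0.12). The receptors of these ligands, *Csf1r* and *Cx3cr1*, were both higher in the SVZ library, so that *Cx3cl1* and its receptor lay on opposite sides.

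Genes that mark the amoeboid microglia of developing white matter were also read. *Spp1*, osteopontin, had 539 SVZ and 0 cortex reads, 77.0-fold above the cortex limit (lower end of the log2 interval 5.96). *Igf1* had 166 and 0 reads (23.7-fold, 4.25) and *Lgals3* 110 and 0 (15.7-fold, 3.65). All were named after their values were seen. *Apoe*, which glia make too, had 6876 and 233 reads, a log2 ratio of 3.66 (3.47 to 3.86). *Gpnmb* and *Itgax*, of the same list, were at 0 in both, and the broadly used *Ctsb* (13772 and 6081 reads) had a log2 ratio of -0.04 (-0.09 to 0.00). *Fabp5*, a fatty acid-binding protein, had 3745 and 2222 reads (-0.47, -0.54 to -0.39), and *Lpl*, lipoprotein lipase, 646 and 600 reads (-1.12, -1.28 to -0.95), both higher in the cortex library; *Lpl* was named after its values were seen. Of 13 genes of that list with a ratio, 6 were SVZ-high and 0 cortex-high, against 11.8% and 9.3% of all genes.

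Around the C1q chains, the proteases *C1ra* and *C1s1* and the later components *C2* and *C4b* were at 0 in both libraries, and *C3* had 7 and 2 reads. Reads that map to several genes are left out of these counts, so a count of 0 does not show absence. Regulators were read more. *Serping1*, the C1 inhibitor, had 2536 and 60 reads (log2 ratio 4.18, 3.81 to 4.57). *Cd55*, which speeds the decay of C3 convertases, had 0 SVZ and 152 cortex reads, 118-fold above the SVZ limit of 3 reads. The upper end of its log2 interval was -6.57. Of 12 genes of the complement list with a ratio, 3 were SVZ-high and 1 was cortex-high, against 11.8% and 9.3% of all genes. No sample is replicated, and none of these differences was tested.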
